A study of Mus musculus with 6 samples.

Results

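Polycomb repressive complex 2 (PRC2) was examined through 9 subunit genes in fully grown mouse oocytes that lack NAT10, the enzyme that acetylates cytidine in RNA. The genes were taken by symbol from a table of 55291 genes, and all 9 were found: Suz12, Eed, Ezh2 and Ezh1 of the core, and the accessory genes Jarid2, Aebp2, Phf1, Mtf2 and Phf19. Messenger RNA was profiled in 3 pools from Gdf9-cre Nat10 conditional knockout females (Nat10 cKO) and 3 pools from wild-type females (WT). Each pool held 10 oocytes, collected from mature females primed with PMSG, a gonadotropin that makes follicles grow, and made into a Smart-seq2 library from polyadenylated RNA. Collection was 36 to 48 h after the injection per the sample protocols and 32 to 48 h per the series' design text, for both groups. Gdf9-cre acts in oocytes and not in the follicle cells around them. The strain, the deleted exons, the age in weeks and whether WT females carried unrecombined alleles are not given in these sources. Nothing says whether pools came from separate females, so p-values measure the spread between these pools. In a pool, a lower level in every oocyte and a loss from only some oocytes cannot be told apart.

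PRC2 places methyl groups on H3K27, and the trimethylated form (H3K27me3) marks genes that are kept silent. EZH2 or its paralog EZH1 carries the enzymatic SET domain, SUZ12 is the scaffold, and EED reads the mark and stimulates the enzyme. One class of complex carries JARID2 and AEBP2, while another carries 1 of the Polycomb-like proteins PHF1, MTF2 and PHF19. In growing mouse oocytes the complex lays down broad H3K27me3 domains, and some of these are passed to the embryo and silence the maternal allele of a small set of genes. Only mRNA was measured here, not protein or histone methylation.

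The recovered reads came to 47.4 to 74.1 M per library in Nat10 cKO and 33.5 to 65.5 M in WT. Levels are in CPM, read counts scaled to a common library size, after TMM scaling, which sets each gene against the majority of mRNAs in the library. Nat10, the targeted gene, stood at 5.72, 5.97 and 6.32 CPM in Nat10 cKO libraries, against 42.1, 50.1 and 39.4 CPM in WT libraries, and fell by 2.67 on the log2 scale (limma adjusted p = 4.28e-08). Oocyte markers were abundant in every library: 12 markers, among them Zp2, Zp3, Gdf9 and Bmp15, summed to 27641 to 33280 CPM in Nat10 cKO and 22063 to 22682 CPM in WT libraries. Of these, 10 rose and 1 fell at an adjusted p under 0.05, where 17.4% of all tested genes were higher and 17.6% lower. The depositors' own scaling gave fewer rises, as listed at the end. Among markers of other cells, 15 granulosa and cumulus genes summed to 403 to 437 CPM in Nat10 cKO and 417 to 469 CPM in WT, of which Serpine2 made up 298 and 322 CPM on average. Of these 15 genes, only Amh and Foxl2, named after their values were seen, had too few reads to be tested. Amh had 2, 2 and 10 reads in Nat10 cKO libraries and 0 in each WT library. Foxl2 had 14, 2 and 10 reads in Nat10 cKO and 0, 2 and 4 in WT libraries. Of 13 tested granulosa markers, 1 rose and 3 fell, while 7 had a log2 change above 0 and 6 below 0. Markers of theca, stroma and endothelium (12 genes) summed to 95.7 to 110 CPM in Nat10 cKO and 97.3 to 102 CPM in WT, with 1 rise and 2 falls among 8 tested. Markers of blood and immune cells (10 genes) summed to 41.3 to 44.7 CPM in Nat10 cKO and 51.2 to 55.8 CPM in WT, most of it C1qb (32.1 CPM on average in Nat10 cKO and 44.0 CPM in WT), the 1 gene that fell among 4 tested. The part of these other cells in the results below was not tested.

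Of the 4 PRC2 core mRNAs, Suz12, Eed and Ezh2 fell, to 48.1%, 75.3% and 83.7% of the WT level, and Ezh1 did not pass the test. Of the 9 subunit genes, 4 fell (Suz12, Eed, Aebp2 and Ezh2), 0 rose and 5 did not pass limma's test at an adjusted p under 0.05, where adjustment ran over all 18353 tested genes. All 9 passed the filter on low counts. Over all tested genes, 17.6% were called lower and 17.4% higher in Nat10 cKO, 35.0% in all. The median log2 change of the 9 genes was -0.25, beside 0.00 over all tested genes. For the 0 rises, the number at an unadjusted p under 0.05 was also 0 with limma, edgeR and DESeq2, and edgeR and DESeq2 called 0 rises. edgeR called 4 falls as well, beside 17.2% of all tested genes lower, 16.6% higher and 33.8% in all.

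Suz12 (chromosome 11, 79993106 to 80034123, plus strand, GRCm38) encodes the scaffold that holds the enzyme and EED together and offers the docking surface for the accessory proteins. Its level was 126, 98.5 and 157 CPM in the 3 Nat10 cKO libraries, against 289, 250 and 255 CPM in the 3 WT libraries. Every Nat10 cKO library lay below every WT library, and the highest Nat10 cKO library, replicate 3, was still well under the lowest WT library. The mean was 127 ± 29.1 CPM in Nat10 cKO and 265 ± 21.0 CPM in WT (SD, n = 3 each), which is 48.1% of the WT level. The log2 change was -1.07 (SE 0.136, 95% confidence interval -1.37 to -0.78, limma adjusted p = 0.00013). On the log2(CPM + 1) scale, 295 of 18353 tested genes, 1.61%, had a log2 change as low or lower. This scale understates falls of scarce genes but hardly that of Suz12, so the rank may overstate how extreme Suz12 is. Between 4687 and 16382 reads per library stood behind the gene. Its exons overlap an annotated non-coding gene on the opposite strand over 178 of 4945 bases.

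Eed (chromosome 7, 89954654 to 89980983, minus strand) encodes the subunit that binds H3K27me3 and passes the signal on to the enzyme. It stood at 164, 155 and 160 CPM in Nat10 cKO and 238, 189 and 209 CPM in WT libraries. The groups did not overlap, and the spread among WT libraries was wider than among Nat10 cKO libraries (SD 24.4 against 4.62 CPM). Eed fell to 75.3% of the WT level, a log2 change of -0.40 (SE 0.0955) with a limma adjusted p of 0.00597. With any 1 library left out, Suz12 and Eed kept their calls, with log2 changes of -1.23 to -0.90 for Suz12 and -0.47 to -0.31 for Eed.

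Ezh2 (chromosome 6, 47530139 to 47595341, minus strand), which encodes the more active of the 2 methyltransferases, was the most abundant subunit mRNA. It measured 345, 304 and 370 CPM in Nat10 cKO libraries and 415, 392 and 411 CPM in WT libraries. The groups did not overlap, but the closest libraries, Nat10 cKO replicate 3 and WT replicate 2, differed little. Ezh2 fell to 83.7% of the WT level, a log2 change of -0.26 (SE 0.0897) with a limma adjusted p of 0.0371. The call was lost without Nat10 cKO replicate 1 (adjusted p = 0.109), Nat10 cKO replicate 2 (0.180), WT replicate 1 (0.104) or WT replicate 3 (0.123). Over its 15 alternatives the adjusted p ran between 0.0129 and 0.910.

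Ezh1 (chromosome 11, 101191115 to 101226463, minus strand) encodes the paralog that is usually the main enzyme in cells that no longer divide. Its level was 64.8, 71.2 and 63.1 CPM in Nat10 cKO libraries and 61.4, 57.8 and 54.3 CPM in WT libraries. All 3 Nat10 cKO libraries lay above all 3 WT libraries, the only subunit gene with that order. The log2 change of 0.20 (95% confidence interval -0.01 to 0.40) did not pass limma's test (adjusted p = 0.134). Groups that do not overlap were common: among all tested genes 24.1% were higher and 24.2% lower in every Nat10 cKO library, and among the 9 subunit genes these numbers were 1 and 4.

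**Figure D1:**
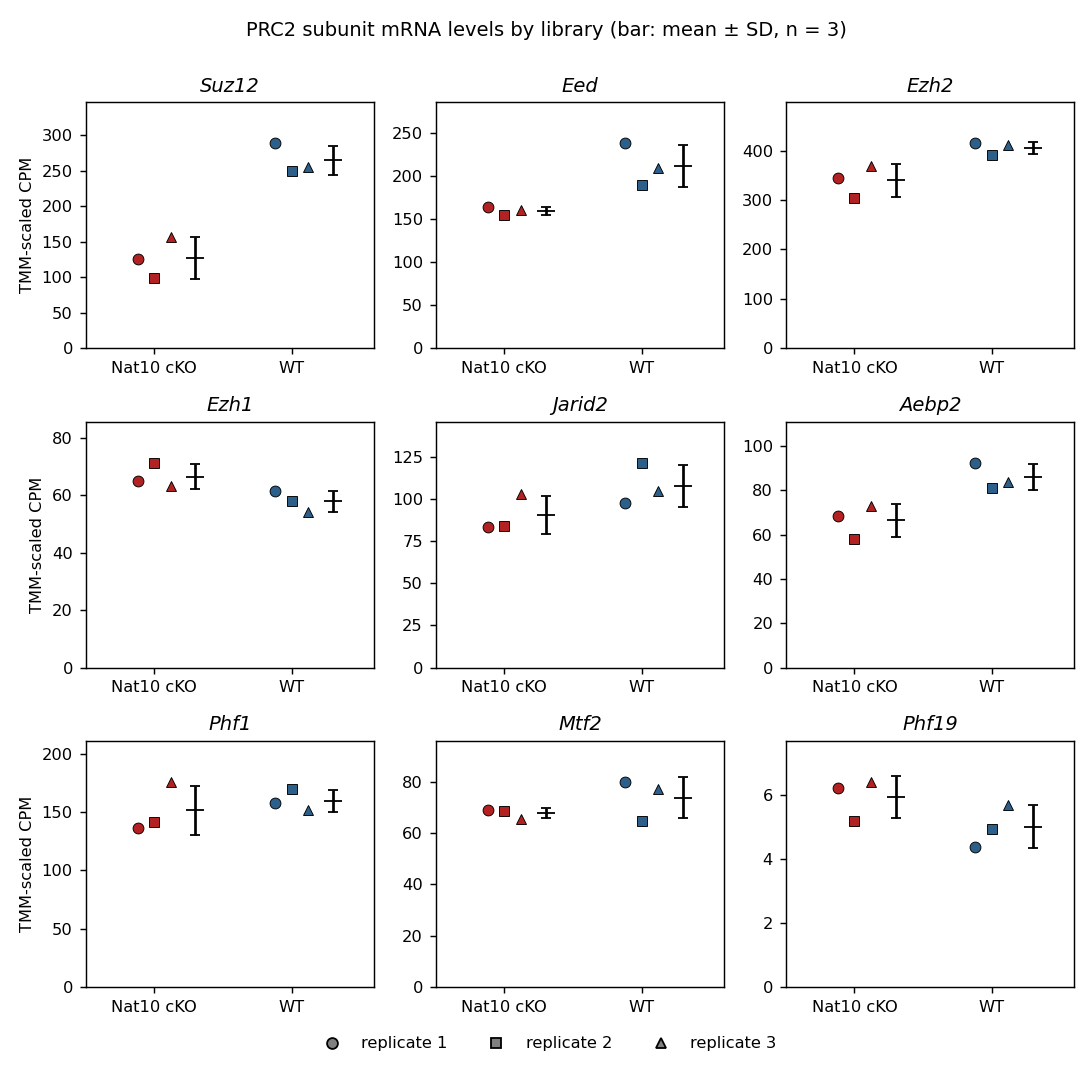
Levels of the 9 PRC2 subunit mRNAs in TMM-scaled CPM (vertical axes, from 0) in each Nat10 cKO and WT library. Symbols mark replicates, and bars give the mean ± SD of 3 libraries. Suz12 averages 127 CPM in Nat10 cKO and 265 CPM in WT, while Mtf2, Phf1, Jarid2 and Phf19 overlap between the groups.

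The 250 bases before the start sites of the 4 core genes are shown because they hold the promoters of the 3 core genes that fell and of Ezh1, which did not pass the test. The sequences come from RefSeq on GRCm38.p6 and run 5′ to 3′ on the strand of the gene. Capitals mark matches, on either strand, to the E2F letters TTTCCCGC or TTTGGCGC and to the CCAAT box letters CCAAT. The windows are chr11:79992856-79993105 (plus strand) for Suz12, chr7:89980977-89981226 (minus) for Eed, chr6:47595031-47595280 (minus) for Ezh2 and chr11:101226464-101226713 (minus) for Ezh1.
Suz12: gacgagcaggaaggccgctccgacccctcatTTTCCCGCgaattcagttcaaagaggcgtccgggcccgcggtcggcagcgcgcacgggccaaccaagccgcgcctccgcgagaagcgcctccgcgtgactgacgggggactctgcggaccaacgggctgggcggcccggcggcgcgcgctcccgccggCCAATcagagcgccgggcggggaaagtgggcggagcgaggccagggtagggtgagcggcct
Eed: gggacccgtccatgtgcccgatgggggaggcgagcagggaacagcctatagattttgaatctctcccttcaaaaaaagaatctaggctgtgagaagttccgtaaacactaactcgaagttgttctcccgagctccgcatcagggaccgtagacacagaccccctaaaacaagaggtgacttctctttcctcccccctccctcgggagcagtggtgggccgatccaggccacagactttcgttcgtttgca
Ezh2: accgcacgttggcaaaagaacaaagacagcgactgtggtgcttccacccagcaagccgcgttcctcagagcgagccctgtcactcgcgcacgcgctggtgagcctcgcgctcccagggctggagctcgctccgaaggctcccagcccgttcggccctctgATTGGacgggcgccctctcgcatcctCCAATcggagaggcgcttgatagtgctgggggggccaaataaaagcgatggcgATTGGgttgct
Ezh1: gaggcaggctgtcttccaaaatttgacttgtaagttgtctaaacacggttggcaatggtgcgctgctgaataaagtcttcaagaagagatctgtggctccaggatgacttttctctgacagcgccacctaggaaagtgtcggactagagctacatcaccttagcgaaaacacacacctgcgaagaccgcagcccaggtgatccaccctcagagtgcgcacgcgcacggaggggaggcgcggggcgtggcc

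The Suz12 window held 1 E2F match, 219 bases before the start, and 1 CCAAT match, 61 bases before it. The Ezh2 window held 3 CCAAT matches, at 90, 64 and 11 bases before the start, on both strands. Neither motif occurred in the Eed or Ezh1 windows. Among 32851 RefSeq promoter windows of the same length, 1.30% held an E2F match and 33.8% a CCAAT match. Of the accessory genes, Phf19 held an E2F match, 208 bases before its start, and its mRNA did not pass the test. CCAAT matches also lay in 1 window each of Jarid2 (179 bases before the start), Mtf2 (98) and Aebp2 (194). Of these, Aebp2 fell, and Jarid2 and Mtf2 did not pass the test. The Suz12 window was the richest in CpG of the core genes, with 37 CpG and 73.6% GC, against 23 CpG for Ezh2, 14 for Ezh1, 12 for Eed and a median of 6 over all windows. These matches describe letters in the windows and do not show that a factor binds there.

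Because a ratio of reads from the same library does not depend on how that library is scaled, 3 ratios between core genes were compared. The Suz12 to Ezh2 read ratio was 0.365, 0.324 and 0.424 in Nat10 cKO libraries and 0.695, 0.638 and 0.620 in WT libraries. The Suz12 to Eed read ratio was 0.770, 0.637 and 0.980 in Nat10 cKO and 1.21, 1.32 and 1.22 in WT libraries. In both ratios every Nat10 cKO library lay below every WT library, with Nat10 cKO replicate 2 lowest. The differences of the mean log2 ratios were -0.82 and -0.68. Suz12 reads were thus 0.567 of the WT value relative to Ezh2 reads and 0.626 of it relative to Eed reads. The Ezh1 to Ezh2 read ratio was 0.188, 0.234 and 0.171 in Nat10 cKO and 0.148, 0.147 and 0.132 in WT libraries, all 3 Nat10 cKO libraries being higher (log2 difference 0.46). Two-sided exact permutation tests over 20 assignments gave p = 0.1 for each of the 3 ratios, and 0.1 after Benjamini-Hochberg adjustment. This is the smallest p that 3 pools against 3 allow, so these ratios cannot pass 0.05.

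**Figure D2:**
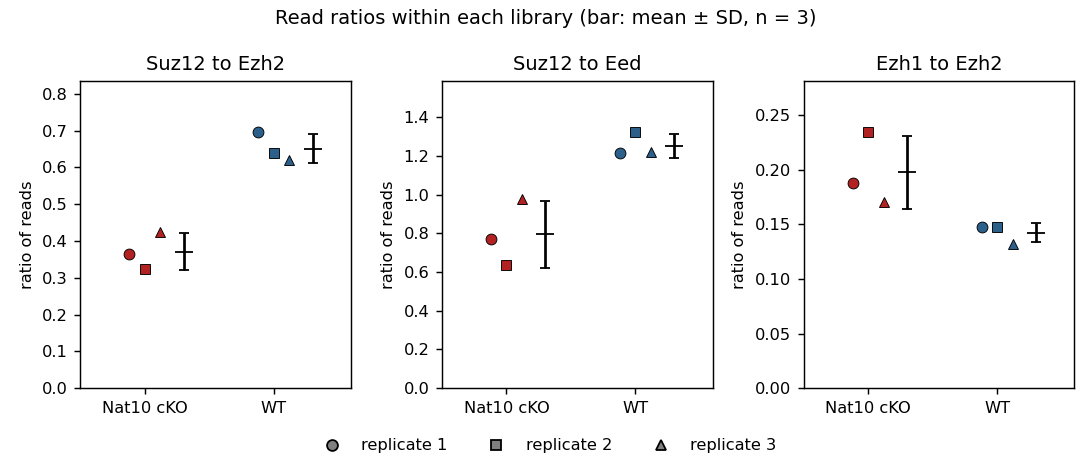
Ratio of reads of 2 core genes within each library (vertical axes, from 0), in Nat10 cKO and WT. Symbols mark replicates, and bars give the mean ± SD of 3 libraries. No Nat10 cKO library overlaps a WT library in any of the 3 ratios.

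Among the accessory subunits, 1 of 5 mRNAs fell. Aebp2 (chromosome 6, 140622663 to 140678472, plus strand) encodes a zinc finger protein of the JARID2 class of complex. Its level was 68.5, 58.0 and 72.7 CPM in Nat10 cKO libraries and 92.4, 81.2 and 83.8 CPM in WT libraries, without overlap. It fell to 77.4% of the WT level, a log2 change of -0.37 (SE 0.105) with a limma adjusted p of 0.0155. The call was lost without Nat10 cKO replicate 2 (adjusted p = 0.0757), WT replicate 1 (0.0707) or WT replicate 3 (0.0524), and the adjusted p ran between 0.00546 and 0.991 over 15 alternatives.

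Jarid2 (chromosome 13, 44729474 to 44921643, plus strand) encodes the partner of AEBP2, a protein of the Jumonji family without demethylase activity that helps bring the complex to chromatin. It stood at 83.4, 84.2 and 103 CPM in Nat10 cKO and 97.3, 121 and 105 CPM in WT libraries. The groups overlapped through Nat10 cKO replicate 3 and WT replicate 1. The log2 change of -0.25 (95% confidence interval -0.49 to -0.01) did not pass (limma adjusted p = 0.0933). Without Nat10 cKO replicate 3 it passed (log2 change -0.35, adjusted p = 0.0177), against a range of 0.0177 to 0.908 over 15 alternatives.

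The 3 Polycomb-like genes, whose proteins tether PRC2 to unmethylated CpG-rich DNA, did not pass the test. Phf1 (chromosome 17, 26933052 to 26937908, plus strand) measured 137, 142 and 176 CPM in Nat10 cKO and 158, 170 and 151 CPM in WT libraries. Mtf2 (chromosome 5, 108065674 to 108109004, plus strand) measured 69.0, 68.8 and 65.6 CPM in Nat10 cKO and 80.0, 64.7 and 77.2 CPM in WT libraries. Phf19 (chromosome 2, 34893757 to 34914026, minus strand), the scarcest subunit mRNA, measured 6.21, 5.17 and 6.39 CPM in Nat10 cKO and 4.36, 4.94 and 5.69 CPM in WT libraries. In each of these genes the groups overlapped. The 95% confidence intervals of the log2 change were -0.31 to 0.14 for Phf1, -0.34 to 0.10 for Mtf2 and -0.12 to 0.54 for Phf19 (limma adjusted p = 0.555, 0.394 and 0.318). The log2(CPM + 1) scale understates the change of low genes, and edgeR, which does not use that scale, gave Phf19 a log2 change of 0.24. Exons of Cuta, on the opposite strand, cover 39.3% of the exon bases of Phf1, and exons of Tmed5 cover 6.93% of those of Mtf2. Whether counting used strand is not given, so reads of these pairs cannot be told apart.

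**Figure D3:**
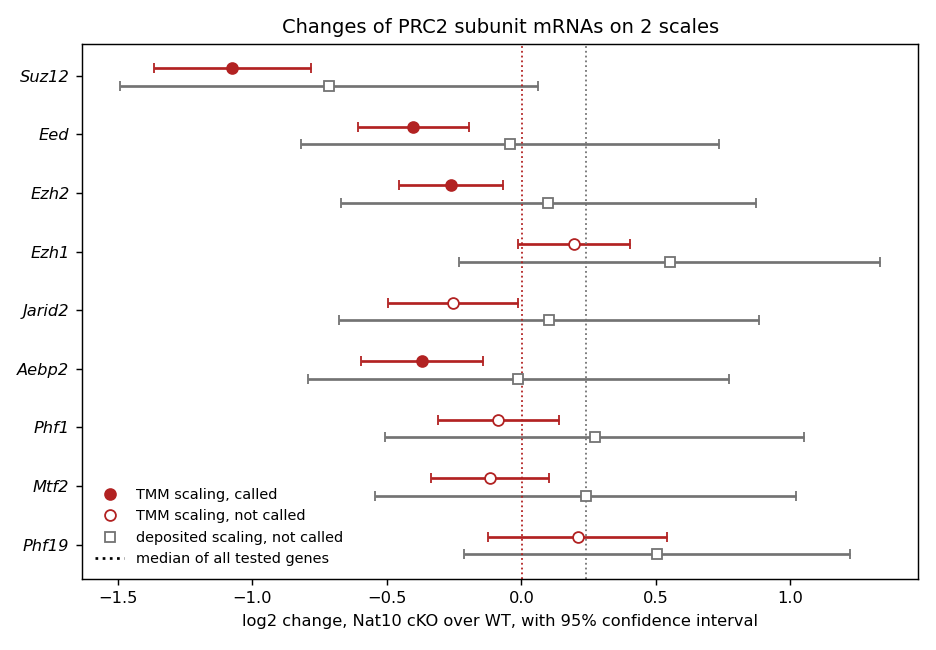
Log2 change (Nat10 cKO over WT, horizontal axis) of each PRC2 subunit mRNA with its 95% confidence interval, under TMM scaling (circles) and deposited scaling (squares); filled symbols passed an adjusted p of 0.05, and dotted lines mark the medians over all tested genes (0.00 and 0.24). Suz12 lies lowest on both scales, and 4 genes passed under TMM scaling and 0 under deposited scaling.

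The deposited values were also compared as they stand, since the depositors scaled them before deposit. An ERCC spike-in was added for calibration per the design text, but no source used here says how the factors were computed or whether ERCC reads entered them. On this scale, values were divided by 1 constant for all libraries, so that their mean total equals that of CPM, and differences in depth remain wherever the depositors' factors do not remove them. Suz12 measured 163, 79.8 and 198 in Nat10 cKO and 175, 225 and 290 in WT libraries on this scale, and the groups overlapped. Its log2 change was -0.71 (95% confidence interval -1.49 to 0.06, limma adjusted p = 0.300). The median over all tested genes moved to 0.24, and relative to this median Suz12 stood at -0.96, Eed at -0.28, Aebp2 at -0.25, Ezh2 and Jarid2 at -0.14, and Ezh1 at 0.31. None of the 9 subunit genes passed limma on this scale, 0 did so at an unadjusted p under 0.05, and no other tool was run on it. Of all tested genes 7.97% were called, 6.58% higher and 1.39% lower. The groups overlapped in all 9 subunit genes, while 22.7% of all tested genes did not overlap, 18.9% higher and 3.81% lower in Nat10 cKO. Before this shift is taken off, Ezh2, Jarid2, Mtf2 and Phf1 had log2 changes of 0.10, 0.10, 0.24 and 0.27, opposite in sign to those under TMM scaling. When the depositors' factors were instead applied to each library's shares of reads, 2 of the 9 genes fell (Suz12 and Eed) and 0 rose, beside 16.5% of all tested genes lower, 5.6% higher and 22.1% in all. The spread behind these values was wide, with standard errors of 0.366 to 0.400 for the 9 genes, against 0.0897 to 0.155 under TMM scaling.

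To compare levels between subunits, TMM-scaled CPM were divided by the length of the merged annotated exons in kilobases (CPM per kb). In Nat10 cKO libraries Ezh2 averaged 50.9 ± 4.99, Phf1 43.4 ± 6.10, Eed 41.7 ± 1.21 and Suz12 25.7 ± 5.89 CPM per kb (SD, n = 3). In WT libraries Ezh2 averaged 60.8 ± 1.83, Eed 55.3 ± 6.37 and Suz12 53.5 ± 4.24 CPM per kb (SD, n = 3), and Phf1 measured 45.3, 48.8 and 43.5 CPM per kb. Suz12 thus ranked 4 of 9 in Nat10 cKO, where its libraries lay below those of Eed and Phf1, and 3 of 9 in WT, where its range overlapped that of Eed. Mtf2, Jarid2, Aebp2 and Ezh1 lay between 6.74 and 11.9 CPM per kb in Nat10 cKO and the same 4 genes had means from 7.77 CPM per kb upward, all below that of Phf1, in WT, and Phf19 at 1.18 and 0.992 CPM per kb. Neighbours whose ranges overlapped were Ezh2 with Phf1, Phf1 with Eed, and Jarid2 with Ezh1 in Nat10 cKO, and Ezh2 with Eed, Eed with Suz12, Mtf2 with Jarid2, and Aebp2 with Ezh1 in WT. Among 17899 tested genes with a length, the mean level over all libraries ranked Ezh2, Eed, Phf1 and Suz12 above 91.1% to 93.6% of genes, and Phf19 above 37.6%. Exon length is that of all annotated isoforms merged, and the isoforms used by oocytes were not measured. The level and rank of Phf1 are further limited by Cuta, whose exons cover 39.3% of its exon bases.

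**Figure D4:**
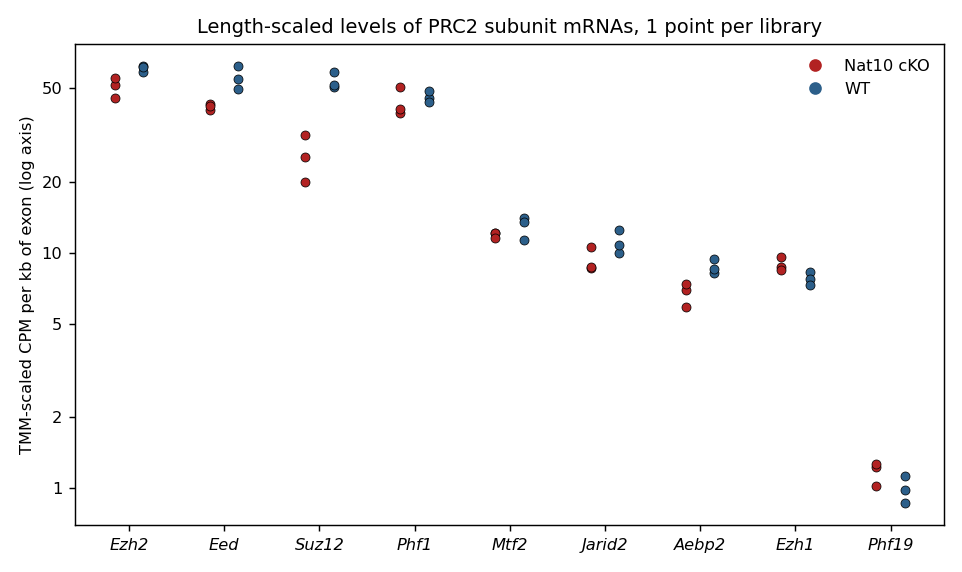
TMM-scaled CPM per kb of merged exon (vertical log axis) of each PRC2 subunit mRNA, with 1 point per library, Nat10 cKO left of WT. Ezh2, Eed, Suz12 and Phf1 form the upper group, where Suz12 averages 25.7 in Nat10 cKO and 53.5 in WT, and Phf19 lies lowest, near 1.

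Within a library, these length-scaled levels give the make-up of the subunit mRNA pool. Suz12 made up 19.8, 17.3 and 23.1% of the summed level of the 4 core genes in Nat10 cKO libraries and 30.6, 30.4 and 29.5% in WT libraries. The share of Ezh2 was higher, at 40.2, 39.4 and 40.3% in Nat10 cKO against 32.6, 35.3 and 35.2% in WT. Ezh1 contributed 14.4, 17.4 and 13.3% of the 2 methyltransferase mRNAs in Nat10 cKO and 11.7, 11.7 and 10.6% in WT. None of these 3 shares overlapped between the groups. The make-up of the accessory pool overlapped between them: Phf1 was 76.7 ± 2.74% of the 3 Polycomb-like mRNAs in Nat10 cKO and 75.2, 79.8 and 74.7% in the WT libraries, and Jarid2 was 57.9 ± 2.34% of the Jarid2 and Aebp2 sum in Nat10 cKO and 55.9 ± 4.31% in WT (SD, n = 3). The overlap of Phf1 with Cuta also limits its share. No test was run on the shares.

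Among 13 genes whose proteins work with, oppose or read the product of PRC2, 5 rose and 3 fell, and the median log2 change was 0.05, beside 0.00 over all tested genes, of which 17.4% were higher and 17.6% lower. The 3 falls among 13 genes are not far from this background. The 5 rises lie above it, and 4 or 5 genes rose in every alternative. No test was run on the list as a set, and its genes were chosen with earlier results known. Both H3K27 demethylase genes fell. Kdm6a measured 128, 109 and 137 CPM in Nat10 cKO and 201, 171 and 176 CPM in WT libraries, and Kdm6b 255, 237 and 277 CPM in Nat10 cKO and 333, 363 and 358 CPM in WT libraries. The groups overlapped for neither, and the log2 changes were -0.55 and -0.46 (limma adjusted p = 0.00144 and 0.00159). Ezhip, named after its values were seen, encodes an inhibitor of the EZH2 enzyme found mainly in the gonads. It was far more abundant than any subunit mRNA, at 813, 729 and 1141 CPM in Nat10 cKO and 1496, 1446 and 1262 CPM in WT libraries, and its log2 change was -0.67 (SE 0.135) with a limma adjusted p of 0.00226.

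Cbx7, Cbx8 and Cbx6, whose proteins read H3K27me3 as part of Polycomb repressive complex 1, rose. Cbx7 stood at 13.6, 23.6 and 11.9 CPM in Nat10 cKO and 2.60, 5.75 and 2.25 CPM in WT libraries (log2 change 1.96, SE 0.280, limma adjusted p = 0.000341). Cbx8 stood at 3.41, 5.09 and 4.12 CPM in Nat10 cKO and 0.618, 2.18 and 1.15 CPM in WT libraries (log2 change 1.21, SE 0.224, limma adjusted p = 0.0013). In both genes every Nat10 cKO library lay above every WT library. Cbx6, named after its values were seen, averaged 0.388 CPM in Nat10 cKO and 0.0311 CPM in WT (limma adjusted p = 0.00514). It had 34, 18 and 24 reads in Nat10 cKO and 0, 0 and 6 reads in WT libraries. Cbx6 thus passed the filter on low counts only through its Nat10 cKO libraries. Like Cbx6, the genes Cbx2, Rbbp4 and Rbbp7 were named after their values were seen. Cbx2, whose protein is a reader of the same family and which was more abundant, averaged 75.6 ± 5.37 CPM in Nat10 cKO and 77.8 ± 10.6 CPM in WT (SD, n = 3) and did not pass (adjusted p = 0.830). Rbbp4, a histone chaperone gene whose protein is a constant partner of PRC2 and of other complexes, rose, with a log2 change of 0.46 (limma adjusted p = 0.00399), whereas its paralog Rbbp7 did not pass (log2 change 0.08, adjusted p = 0.505). Under deposited scaling the rises of Cbx7, Cbx8 and Cbx6 kept their calls, while Kdm6a, Kdm6b, Ezhip and Rbbp4 did not pass (adjusted p = 0.818, 0.914, 0.690 and 0.221).

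**Figure D5:**
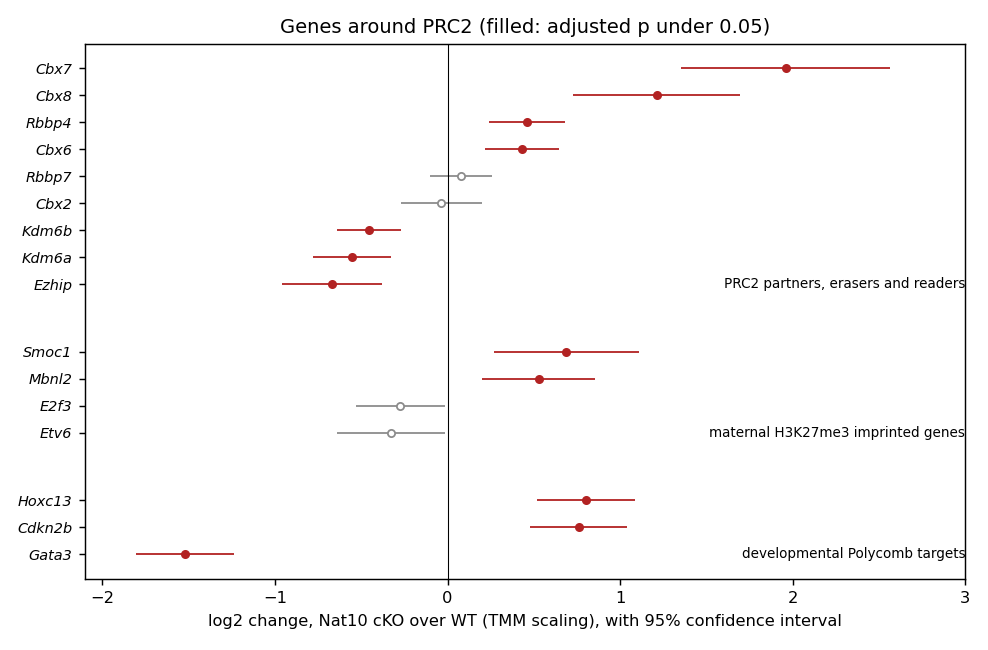
Log2 change (Nat10 cKO over WT, TMM scaling, horizontal axis) with 95% confidence interval of the genes described in the text from 3 lists around PRC2. Filled points passed an adjusted p of 0.05. Of the genes shown, Cbx7 lies highest, with a log2 change of 1.96, and Gata3 lowest, at -1.52, on the log2(CPM + 1) scale. This scale understates the change of low genes. edgeR put Cbx6 (3.14) and Smoc1 (2.68), both with few WT reads, above Cbx7 (2.23).

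Genes that maternal H3K27me3 silences in mouse embryos were low in these oocytes, and all 15 summed to 18.0 to 19.6 CPM in Nat10 cKO and 17.1 to 18.8 CPM in WT libraries. Of the 15, 9 had enough reads to be tested, 2 rose and 0 fell, with a median log2 change of 0.07. With 17.4% of all tested genes higher and 17.6% lower, 2 rises among 9 genes are near the background. Smoc1, which encodes a secreted matrix protein, measured 1.12, 1.39 and 0.221 CPM in Nat10 cKO and 0.124, 0.172 and 0.124 CPM in WT libraries (limma adjusted p = 0.0152). Mbnl2, a splicing regulator gene, measured 0.669, 0.462 and 1.27 CPM in Nat10 cKO and 0.309, 0.172 and 0.202 CPM in WT libraries (limma adjusted p = 0.0161). All 3 Nat10 cKO libraries lay above all 3 WT libraries in both genes, but the counts behind WT values were only 4 to 13 reads. Smoc1, with 4, 6 and 8 reads in WT, passed the filter on low counts only through its Nat10 cKO libraries (84, 66 and 16 reads). Mbnl2, with 10, 6 and 13 reads in WT, would not have passed it on its WT libraries alone. Neither rise would thus have been tested on WT libraries alone. Without that filter, 2 of 14 genes rose. The call of Smoc1 was lost without Nat10 cKO replicate 1 (adjusted p = 0.0622), Nat10 cKO replicate 2 (0.0588) or WT replicate 3 (0.0570), and that of Mbnl2 without Nat10 cKO replicate 3 (0.0528) or WT replicate 3 (0.0615). E2f3 and Etv6 had log2 changes of -0.27 and -0.33 and did not pass (limma adjusted p = 0.0965 and 0.0974). Without the added 1 CPM, edgeR gave -0.67 and -0.58, which did not pass either (edgeR adjusted p = 0.149 and 0.119). Every Nat10 cKO library lay below every WT library in both genes, as in 24.2% of all tested genes. For the 0 falls, limma gave 2 genes at an unadjusted p under 0.05, and edgeR and DESeq2 called 0 and gave 0 at that level.

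Developmental genes that PRC2 typically marks in embryonic cells moved both ways. Of 39 genes, 20 were tested, 6 rose and 4 fell, and the median log2 change was 0.04; 3 had no read in any library. Over all tested genes 17.4% were higher and 17.6% lower, so that 4 falls among 20 genes are near the background. The 6 rises lie above it but ran between 4 and 6 over the alternatives, and the list was not tested as a set. Without WT replicate 3, 4 of 20 tested genes rose, as many as fell. The filter on low counts can keep a gene through its Nat10 cKO libraries alone, and without it 5 of 36 genes rose. Gata3, a transcription factor gene, was lower in all Nat10 cKO libraries, at 18.2, 14.9 and 22.0 CPM, against 51.7, 55.6 and 54.7 CPM in WT libraries (log2 change -1.52, SE 0.132, limma adjusted p = 9.08e-06). The homeobox gene Hoxc13 and the cell cycle inhibitor gene Cdkn2b rose, averaging 1.31 and 1.18 CPM in Nat10 cKO and 0.323 and 0.291 CPM in WT (limma adjusted p = 0.00061 and 0.000863). Without Nat10 cKO replicate 1 the falls numbered 2. The other 19 genes had too few reads to test. The genes were listed from their known marking in other cells, and whether they carry H3K27me3 in these oocytes was not measured.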

How the data were processed

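Trim Galore 0.6.7, STAR 2.7.10a, featureCounts and mm10 were used, per the submitters' processing notes; settings and strand use are not stated there. The authors' deposited table holds whole read counts in the column of WT replicate 1. The remaining 5 deposited columns hold a signal, whole reads times 1 factor per library (0.908 to 0.932 in Nat10 cKO; 1.38 and 0.945 in WT replicates 2 and 3). After division by the smallest value of a column, 100% of its values above 0 were whole within 0.001. Of genes with 1 to 20 reads, 81.7 to 85.1% per library had an even count; whether mates of a pair were counted separately is not stated, so read numbers may overstate molecules.

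Genes were kept by filterByExpr (minimum count 10), and limma (trended, robust) was run on log2(CPM + 1) with TMM factors from the kept genes, two-sided, with Benjamini-Hochberg adjustment over 18353 genes. edgeR called 33.8% of them, against 35.0% for limma. A gene could pass the filter through the libraries of 1 group alone. The script was tested on simulated data. Gene positions and exon lengths came from GENCODE M21 on GRCm38, which is mm10; Ezhip is listed under an older symbol. The members and lists were chosen with earlier results of these data known. Naming was limited to Nat10, the 9 subunit genes and the 4 tested genes with the smallest p of each other list. For other cell types, abundant markers were named. Other genes are said to be named after their values were seen. Tools were limma 3.58.1, edgeR 4.0.16 and DESeq2 1.42.0 in R 4.3.3, with scipy 1.17.1 in Python 3.11.15. Some single-gene results are not reported here.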

Additional observations from a re-analysis of the deposited data

How the results depend on the processing

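The number of subunit genes that fell was 4 with TMM scaling, median-of-ratios factors, a pseudocount of 0.25, edgeR and DESeq2, and 3 with library sizes only. It was 0 with deposited values, 2 when the depositors' factors were applied to shares of reads and 2 without a filter on low counts, and ran between 2 and 5 when 1 library was left out; 0 rose in all 15 alternatives. Deposited values gave 0 falls among the 13 partners, erasers and readers and 1 fall among developmental genes. Of the 12 oocyte markers, 10 rose and 1 fell with TMM scaling, but 2 rose and 0 fell with deposited values. The depositors' factors on shares of reads gave 3 rises and 1 fall among them. With 1 library left out, rises among maternally silenced genes ran between 0 and 2 and falls among developmental genes between 2 and 4. Deposited values turned the sign of Ezh2 (0.10), Jarid2 (0.10), Mtf2 (0.24) and Phf1 (0.27). The factors applied to shares of reads, which move the median over all genes to -0.15, turned that of Ezh1 (-0.019). Suz12 kept its call in 14 of 15 alternatives, with log2 changes of -1.29 to -0.71 over all 15. Same-numbered pools did not deviate together (correlations 0.0788, 0.0747 and -0.120), so the numbers do not pair them; with a replicate block 4 subunit genes fell, with no change in any of their calls (Suz12 -1.07, limma adjusted p = 8.23e-06). The 3 read ratios kept their direction with any library left out. The cause of these differences was not tested. Phf19, at 141 to 464 reads per library, and the genes near 1 CPM are those where depth limits precision most.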
